A study of Mus musculus with 14 samples.

Results

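The data described here are the RNA levels of 33 genes of cholesterol and fatty acid synthesis in mouse Ocy454 cells, an osteocyte-like line. The genes were taken by symbol from a list of enzymes, sterol sensors and lipid carriers, and all 33 were found among the 39179 genes of the time course table and the 35886 genes of the sorted libraries. The symbol used here served for 32 of them in the time course, and *Msmo1* was matched by its gene identifier. By role they fall into 7 enzymes from acetyl-CoA to isoprenoids, 11 enzymes from squalene to cholesterol, 7 genes of sterol sensing and transport, and 8 genes of fatty acid synthesis.

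Ocy454 cells carry a thermosensitive large T antigen, divide at 33 °C and differentiate at 37 °C. PolyA RNA was sequenced from unsorted cells after 1, 7, 10 and 14 days at 37 °C, with 2 libraries a day. In a separate experiment, live cells differentiated for 17 days were labelled for CD61, the integrin beta-3 subunit encoded by *Itgb3*, and the 10% with the most surface label (CD61high) and the 10% with the least (CD61low) were collected, with 3 libraries each. No group carried a genetic change or drug, and all came from this immortalized line. Time course libraries held 27518605 to 34311238 reads and sorted libraries 18815602 to 19220064 estimated counts, and no pair of replicates agreed within counting noise. The methods call the day samples biological duplicates. They describe 3 independently collected groups of cells for the sort, from which both fractions were taken, so the 6 sorted libraries are not 6 separate groups, and which libraries share a group is not given in the sources used here.

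*Itgb3* was at 5.31, 5.54 and 6.10 TMM-scaled CPM (counts per library total, where the total is corrected by edgeR's TMM factor) in CD61low and at 130.1, 100.1 and 103.6 in CD61high (Log2FC 4.30 ± 0.13 SE), as the labels require. Of 10 osteoblast and osteocyte markers, 6 rose past 2-fold by day 14, among them *Phex*, *Dmp1* and *Sost*. *Col1a1* (Log2FC -0.47) and *Pdpn* (-0.53) of the same list were lower at an adjusted p below 0.01, and the osteocyte gene *Mepe* never reached 1 CPM. Of 10 adipocyte markers only *Cebpa* was above 1 CPM in any group, and of 6 macrophage markers only *Cd68*. The summed level of the adipocyte list was 10.5 to 11.1 CPM on day 1 and 17.6 to 19.3 on day 14, and that of the macrophage list was 2.35 to 2.72 and 3.993 to 3.997 CPM. *Cidec* and *Lep* were listed at 0 in every group mean. The summed level of 10 cell cycle genes was 2114 to 2160 CPM on day 1 and 2079 to 2116 on day 14.

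Cells make cholesterol from acetyl-CoA through mevalonate, isoprenoids, squalene and lanosterol, and make fatty acids from the same precursor by carboxylation to malonyl-CoA, chain building, elongation and desaturation. Transcription of both sets of enzymes is driven by the SREBP factors, encoded by *Srebf1* and *Srebf2*. SCAP carries them from the endoplasmic reticulum for cleavage when sterols are low, and the INSIG proteins hold SCAP back when sterols are high. Sterol excess also activates the nuclear receptor LXR, whose known targets include *Abca1*, the exporter of cellular cholesterol, and *Srebf1*.

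From day 1 to day 14 the cholesterol pathway fell along its whole length. All 18 enzymes of sterol synthesis were lower on day 14 at an adjusted p below 0.01. On the log2(CPM + 1) scale, 15 of them were also lower by more than 2-fold. Of the 33 genes, 21 were called lower and 2 higher, where a call needs an adjusted p below 0.01 and a Log2FC past 1 on the log2(CPM + 1) scale. In the background, 5.90% of the 12725 genes tested were called lower and 7.51% higher. Without the fold limit, 29 members were lower and 2 higher, against 36.0% and 32.6% of all genes. The median Log2FC was -1.60 over the sterol enzymes and -0.03 over all genes tested. In these bulk samples, fewer cells making a transcript and less of it per cell cannot be told apart.

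**Figure D1:**
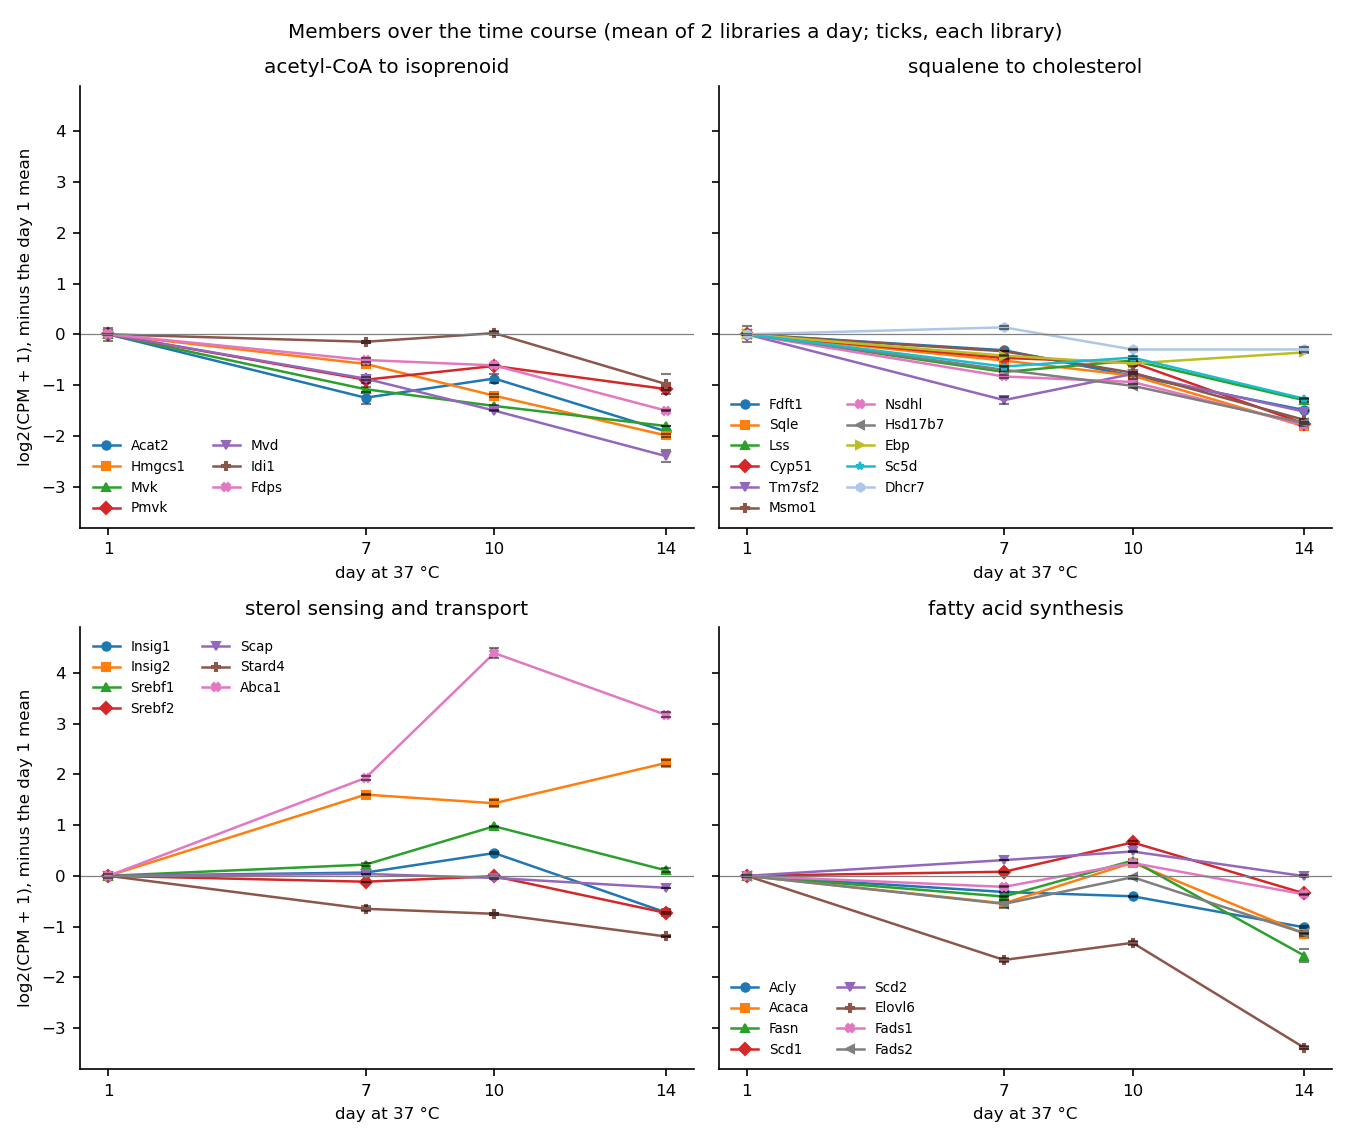
Each line is 1 member, as the mean of 2 libraries on the log2(CPM + 1) scale minus its day 1 mean, against the day at 37 °C, with a tick for each library and a panel for each role. The sterol enzymes go down from day 1 to day 14, most fatty acid genes go up from day 7 to day 10 and down by day 14, and *Abca1* and *Insig2* stand above the rest.

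Among the enzymes from acetyl-CoA to isoprenoids, *Mvd*, the mevalonate diphosphate decarboxylase, fell most. It was at 215 and 213 CPM on day 1, 114 and 119 on day 7, 74.1 and 75.6 on day 10, and 43.4 and 36.4 on day 14 (day 14 against day 1, Log2FC -2.40 ± 0.05 SE, adjusted p = 2.7e-23). The libraries of each later day lay below those of the day before it.

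*Hmgcs1*, the cytosolic HMG-CoA synthase that makes the precursor of mevalonate, had the same order of days. Its levels were 543 and 537 CPM on day 1, 364 and 356 on day 7, 237 and 229 on day 10, and 137 and 133 on day 14 (Log2FC -1.99 ± 0.04 SE, adjusted p = 1.7e-25). *Acat2*, the cytosolic thiolase that joins acetyl-CoA units, went from 110.2 and 112 CPM to 28.7 and 29.0 (Log2FC -1.91 ± 0.06 SE, adjusted p = 1.5e-19), with a partial return on day 10 at 56.6 and 64.5 CPM after 42.5 and 50.3 on day 7.

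The mevalonate kinase *Mvk* fell from 92.1 and 95.3 CPM to 26.1 in both day 14 libraries (Log2FC -1.81 ± 0.05 SE), and the phosphomevalonate kinase *Pmvk* from 47.0 and 45.6 CPM to 20.96 and 21.8 (Log2FC -1.08 ± 0.06 SE). *Fdps*, the farnesyl diphosphate synthase that bisphosphonates inhibit, went from 106.7 and 106.1 CPM to 37.3 and 36.5 (Log2FC -1.50 ± 0.05 SE, adjusted p = 2.2e-20). *Idi1*, the isopentenyl diphosphate isomerase, lay at the fold limit, just outside it on the log2(CPM + 1) scale, which understates the fold change of low genes. It was at 10.4 and 8.47 CPM on day 1 and at 5.04 and 3.60 on day 14 (Log2FC -0.98 ± 0.12 SE, adjusted p = 4.6e-08). It passed the limit in 5 alternatives, at -1.07 with edgeR and with quantile normalization and -1.12 with a pseudocount of 0.1, and ran from -0.78 without the second day 14 library to -1.18 without the first.

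From squalene to cholesterol, 9 of 11 enzymes were called lower, against 5.90% of all genes, and *Sqle* led them. *Sqle*, the squalene epoxidase that commits squalene to sterols, was at 472 and 486 CPM on day 1, 332 and 338 on day 7, 277 and 267 on day 10, and 134 and 138 on day 14 (Log2FC -1.81 ± 0.04 SE, adjusted p = 1.7e-24). The lanosterol demethylase *Cyp51* was steadier until day 10, at 557 and 559 CPM on day 1 and 377 and 381 on day 10, and was then at 166 and 163 on day 14 (Log2FC -1.76 ± 0.03 SE). Day 14 lay below every earlier library for both genes.

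The demethylation enzymes that follow moved by a similar amount between day 1 and day 14. *Nsdhl* had a Log2FC of -1.79 ± 0.06 SE, *Hsd17b7* of -1.75 ± 0.04 SE and *Msmo1* of -1.69 ± 0.04 SE. *Tm7sf2*, a sterol reductase, was at 14.3 and 18.1 CPM on day 1 and 4.26 and 5.74 on day 14 (Log2FC -1.52 ± 0.12 SE). The squalene synthase *Fdft1* fell by 1.49 on the log2 scale, the lanosterol synthase *Lss* by 1.30 and the sterol desaturase *Sc5d* by 1.27.

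The remaining enzymes moved little. *Ebp*, the sterol isomerase, was at 153 and 157 CPM on day 1 and 119 and 122 on day 14 (Log2FC -0.36 ± 0.04 SE, adjusted p = 1.8e-08). *Dhcr7*, which reduces the last intermediate to cholesterol in one branch of the pathway, was at 84.9 and 86.6 CPM on day 1, 92.4 and 96.4 on day 7, 69.2 and 69.8 on day 10, and 72.3 and 66.9 on day 14 (Log2FC -0.30 ± 0.05 SE, adjusted p = 2.3e-06). These shifts passed the test and stayed within the 2-fold limit.

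In fatty acid synthesis, 7 of 8 genes were lower on day 14 than on day 1 at an adjusted p below 0.01 and 5 were called. Of all genes, 36.0% were lower and 5.90% were called lower. *Elovl6*, which elongates palmitate to stearate, had the lowest Log2FC of the 33 genes. It was at 110.2 and 117 CPM on day 1, 36.1 and 34.4 on day 7, 43.5 and 46.2 on day 10, and 10.1 and 9.74 on day 14 (Log2FC -3.39 ± 0.06 SE, adjusted p = 7.2e-26), an 11.4-fold lower mean.

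*Fasn*, the fatty acid synthase, followed another course. It was at 920 and 898 CPM on day 1, 682 and 687 on day 7, 1105 and 1135 on day 10, and 335 and 278 on day 14 (Log2FC -1.57 ± 0.05 SE, adjusted p = 1.1e-19). Day 10 was the highest day and day 14 the lowest. *Acaca*, the acetyl-CoA carboxylase that makes malonyl-CoA, was at 48.6 in both day 1 libraries, at 33.4 and 32.8 CPM on day 7, 58.6 and 58.2 on day 10, and 20.8 and 22.4 on day 14 (Log2FC -1.14 ± 0.06 SE).

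The desaturase *Fads2* had a Log2FC of -1.13 ± 0.04 SE. *Acly*, the citrate lyase that supplies cytosolic acetyl-CoA, lay just inside the limit, at 448 and 442 CPM on day 1 and 223 and 217 on day 14 (Log2FC -1.01 ± 0.03 SE), and just outside it, at -0.98, after TMM scaling. *Fads1* (Log2FC -0.36) and *Scd1* (-0.35) were lower within the 2-fold limit. *Scd2*, a stearoyl-CoA desaturase, was at 2295 and 2364 CPM on day 1 and 2360 and 2279 on day 14 (Log2FC -0.01, 95% interval -0.09 to 0.08).

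The sterol sensing and transport genes split. *Abca1* was at 1.65 and 1.51 CPM on day 1, 8.55 and 9.12 on day 7, 49.2 and 57.3 on day 10, and 23.2 and 21.4 on day 14 (day 14 against day 1, Log2FC 3.18 ± 0.09 SE, adjusted p = 6.3e-21). *Insig2* was at 56.0 and 55.5 CPM on day 1, 169.9 and 173 on day 7, 146 and 158 on day 10, and 255 and 274 on day 14 (Log2FC 2.22 ± 0.04 SE, adjusted p = 1.1e-24). In both genes every later library lay above both day 1 libraries. In GRCm39, *Abca1* lies at chr4:53030787-53159900 and *Insig2* at chr1:121181760-121260400.

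*Insig1*, the other INSIG gene and itself a known SREBP target, was lower on day 14. It was at 249 and 241 CPM on day 1, 252 and 261 on day 7, 338 and 332 on day 10, and 156 and 141 on day 14 (Log2FC -0.72 ± 0.04 SE, adjusted p = 2.3e-14). *Srebf2*, whose product chiefly drives cholesterol genes, went from 523 and 513 CPM to 316 and 308 (Log2FC -0.73 ± 0.03 SE). *Srebf1* ended near where it began, at 207 and 220 CPM on day 1 and 224 and 237 on day 14 (Log2FC 0.11, 95% interval 0.03 to 0.19, adjusted p = 0.016), with 420 and 423 CPM between them on day 10. *Stard4*, a sterol carrier, was called lower (Log2FC -1.20 ± 0.04 SE), and *Scap* was lower by 0.24 ± 0.04 SE on the log2 scale.

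**Figure D2:**
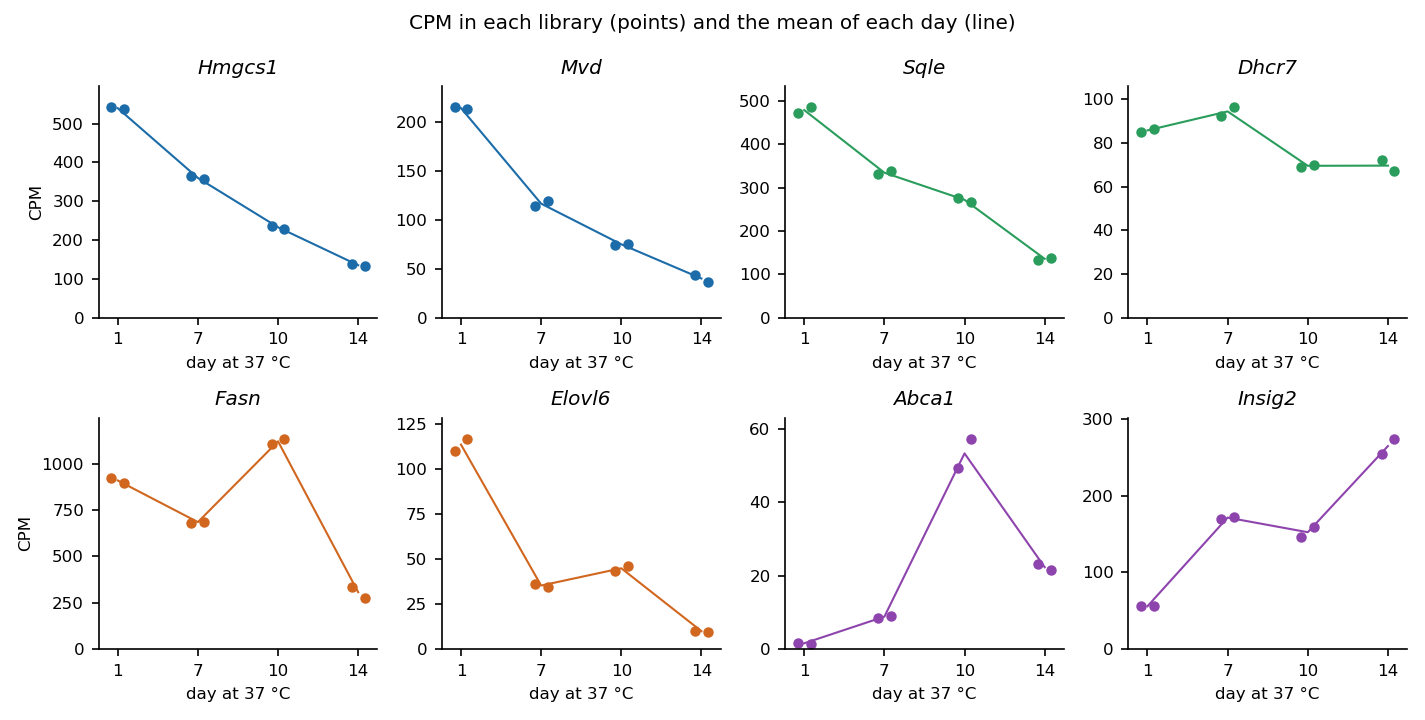
CPM in each library (points) and the mean of each day (line) for 8 members, against the day at 37 °C, each panel from 0. *Hmgcs1*, *Mvd* and *Sqle* fall at each step, *Fasn* and *Abca1* peak on day 10, *Dhcr7* changes little, and *Insig2* is highest on day 14.

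Promoters are shown for 5 of these genes because they moved in different ways: *Hmgcs1* and *Mvd* fell steadily, *Fasn* peaked on day 10, *Elovl6* fell most and *Abca1* rose most. Each line gives the 170 bases before the annotated RefSeq start site, 5′ to 3′ on the gene's strand in build GRCm38.p6. Capitals mark the letters searched for on both strands, where a match on the opposite strand appears as its reverse complement: TCACNCCAC (the core of a sterol regulatory element), CACGTG (an E-box), CCAAT (read by NF-Y) and GGGCGG (a GC box). The stretches lie at chr13:119690181-119690350 (*Hmgcs1*, plus strand), chr8:122443423-122443592 (*Mvd*, minus), chr11:120824548-120824717 (*Fasn*, minus), chr3:129532216-129532385 (*Elovl6*, plus) and chr4:53159896-53160065 (*Abca1*, minus).
Hmgcs1: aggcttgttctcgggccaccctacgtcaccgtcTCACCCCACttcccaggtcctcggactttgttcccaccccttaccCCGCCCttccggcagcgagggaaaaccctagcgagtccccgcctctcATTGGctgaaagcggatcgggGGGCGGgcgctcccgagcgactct
Mvd: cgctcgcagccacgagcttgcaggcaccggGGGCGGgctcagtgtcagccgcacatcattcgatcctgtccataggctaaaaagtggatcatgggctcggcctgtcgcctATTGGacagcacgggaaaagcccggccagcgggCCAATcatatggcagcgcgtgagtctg
Fasn: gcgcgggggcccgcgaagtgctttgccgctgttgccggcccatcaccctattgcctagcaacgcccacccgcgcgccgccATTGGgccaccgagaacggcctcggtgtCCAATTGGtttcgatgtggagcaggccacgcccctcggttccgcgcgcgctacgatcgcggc
Elovl6: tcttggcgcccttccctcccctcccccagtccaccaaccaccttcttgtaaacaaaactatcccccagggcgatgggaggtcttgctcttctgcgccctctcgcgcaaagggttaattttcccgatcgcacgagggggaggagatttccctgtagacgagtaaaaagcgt
Abca1: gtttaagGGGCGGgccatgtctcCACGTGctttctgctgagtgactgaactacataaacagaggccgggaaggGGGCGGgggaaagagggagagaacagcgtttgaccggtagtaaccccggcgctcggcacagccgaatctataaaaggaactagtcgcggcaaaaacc

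The *Hmgcs1* stretch holds 1 sterol element core, 1 CCAAT and 2 GC boxes, and that of *Mvd* holds 2 CCAAT and 1 GC box. The *Fasn* stretch holds 3 CCAAT, of which 2 overlap on opposite strands. That of *Abca1* holds 1 E-box and 2 GC boxes, and that of *Elovl6* holds none of the letters searched. Of the 33 genes, 26 had a RefSeq window reaching from 250 bases before to 50 after a start site. CCAAT was in the windows of 20 of these 26 (76.9%), against 43.2% of the genes tested in the time course that had a window and 41.1% of all genes with one. The GC box was in 22 of 26 (84.6%, against 70.3% and 38.2%), the E-box in 6 (23.1%, against 12.04% and 8.09%) and the sterol element core in 1 (3.85%, against 1.38% and 1.44%). The shorter letters CACNCCAC, which every sterol element core contains and which were searched afterwards, were in 3 (*Acat2*, *Hmgcs1* and *Insig1*), against 7.56% of tested genes. A match is a run of letters and not a measured binding site.

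The decline did not run at 1 pace. Between day 1 and day 7, 16 of the 18 sterol enzymes were lower at an adjusted p below 0.01, with *Idi1* (Log2FC -0.15) and *Dhcr7* (0.14) outside it. Over the 33 genes, 24 were lower and 4 higher, against 32.0% and 24.5% of all genes. With the fold limit, *Elovl6* (Log2FC -1.66 ± 0.06 SE), *Tm7sf2* (-1.30 ± 0.12 SE), *Acat2* (-1.25 ± 0.06 SE) and *Mvk* (-1.08 ± 0.05 SE) were called lower, and *Abca1* (1.93 ± 0.09 SE) and *Insig2* (1.60 ± 0.04 SE) higher. The background was 4.62% lower and 4.49% higher.

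Between day 7 and day 10 the groups parted. Of the 8 fatty acid genes 7 rose at an adjusted p below 0.01, while 9 of the 18 sterol enzymes fell and 5 rose. Of all genes, 29.8% rose and 18.9% fell, so the count of sterol enzymes that rose is not above the background. The 2 groups were not tested against each other. The fatty acid genes that rose were *Acaca* (Log2FC 0.80 ± 0.06 SE), *Fasn* (0.71 ± 0.05 SE), *Scd1* (0.58 ± 0.04 SE), *Fads2* (0.53 ± 0.04 SE), *Fads1* (0.47 ± 0.03 SE), *Elovl6* (0.34 ± 0.06 SE) and *Scd2* (0.17 ± 0.04 SE). *Acly* was at -0.09 (adjusted p = 0.037). Marker lists of other cell types had their highest summed level on day 10 as well. The adipocyte list was at 17.5 to 19.6 CPM on day 7 and 28.7 to 30.6 on day 10, the macrophage list at 1.77 to 1.90 and 4.92 to 5.19 CPM, and their part in the results was not tested. *Cebpa* alone had a day 10 mean of 28.9 CPM and *Cd68* of 4.64, and the other genes of both lists were below 1 CPM. *Cebpa* rose by 0.62 ± 0.08 SE and *Cd68* by 1.07 ± 0.12 SE between these days, and *Cebpa* was lower again on day 14 (Log2FC -0.66 against day 10).

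The 9 sterol enzymes that fell were led by *Mvd* (Log2FC -0.63 ± 0.05 SE), *Hmgcs1* (-0.63 ± 0.04 SE) and *Fdft1* (-0.50 ± 0.05 SE), and included *Dhcr7*, *Msmo1*, *Mvk*, *Hsd17b7*, *Sqle* and *Ebp*. The 5 that rose were *Tm7sf2* (0.52 ± 0.12 SE), *Acat2* (0.38 ± 0.06 SE), *Pmvk*, *Lss* and *Sc5d*. *Srebf1* rose by 0.76 ± 0.04 SE and *Insig1* by 0.38 ± 0.04 SE, while *Insig2* fell by 0.17 ± 0.04 SE on the log2 scale. *Abca1* was the 1 member called with the fold limit (Log2FC 2.46 ± 0.09 SE, adjusted p = 2.7e-17).

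Over all members 16 were higher and 10 lower at an adjusted p below 0.01, against 29.8% and 18.9% of all genes. With the fold limit the background was 1.43% higher and 0.786% lower. The split over all genes depends on the scaling of the libraries, with 182 called higher and 100 lower as deposited, 145 and 127 after TMM scaling, and 131 and 132 after quantile normalization. After TMM scaling, 6 of the 8 fatty acid genes rose, without *Scd2*, and 11 of the 18 sterol enzymes fell. On that scale 2943 of the 12725 genes tested rose and 3158 fell at an adjusted p below 0.01.

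From day 10 to day 14 both groups fell. All 8 fatty acid genes and 16 of 18 sterol enzymes were lower at an adjusted p below 0.01, against 30.0% of all genes. With the fold limit, 0.872% of all genes were called lower. The fatty acid genes called were *Elovl6* (Log2FC -2.07 ± 0.06 SE), *Fasn* (-1.87 ± 0.05 SE), *Acaca* (-1.40 ± 0.06 SE), *Fads2* (-1.10 ± 0.04 SE) and *Scd1* (-1.004 ± 0.04 SE). The sterol enzymes called were *Cyp51* (-1.20 ± 0.03 SE), *Acat2* (-1.04 ± 0.06 SE) and *Idi1* (-1.002 ± 0.12 SE). *Scd1* and *Idi1* lay at the fold limit.

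*Abca1* (-1.22 ± 0.09 SE) and *Insig1* (-1.17 ± 0.04 SE) were called lower too. *Ebp* (0.22 ± 0.04 SE) and *Insig2* (0.79 ± 0.04 SE) rose in the same interval, and *Dhcr7* was at 0.00 (95% interval -0.09 to 0.10). In all, 30 members were lower and 2 higher, against 30.0% and 22.9% of all genes, and 10 were called lower, against 0.872% (2.09% were called higher). That count was 8 to 11 with a library left out and 7 after TMM scaling.

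By the order of the intervals, 7 genes fell in each of the 3 (*Fdft1*, *Hmgcs1*, *Hsd17b7*, *Msmo1*, *Mvd*, *Mvk* and *Sqle*), and 11 fell, rose and fell again (*Acaca*, *Acat2*, *Elovl6*, *Fads1*, *Fads2*, *Fasn*, *Lss*, *Pmvk*, *Sc5d*, *Srebf2* and *Tm7sf2*). *Abca1*, *Scd2* and *Srebf1* rose in the earlier intervals and fell in the last. Day 14 had the lowest mean of the 4 days for 28 of the 33 genes. The comparisons of neighbouring days share libraries, so these patterns are a description. How many of all genes had each pattern was not counted. Over all genes the median Log2FC of the 3 intervals was -0.0473, 0.0658 and -0.0405 as deposited, and -0.0053, 0.0036 and 0.0126 after TMM scaling. *Srebf2* moved by only -0.12 and then 0.11 before its last fall, and the rise of *Scd2* to day 10 did not pass after TMM scaling.

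The summed CPM of the 18 sterol enzymes was 3427 to 3470 on day 1, 2314 to 2356 on day 7, 1965 to 1968 on day 10 and 1135 to 1141 on day 14. That of the 8 fatty acid genes was 4775 to 4844, 4845 to 4879, 6042 to 6057 and 3502 to 3647. *Scd2* was the largest part of this second sum, and it rose between day 1 and day 7 (Log2FC 0.31). In that interval *Acaca*, *Acly*, *Elovl6*, *Fads1*, *Fads2* and *Fasn* were lower at an adjusted p below 0.01, where 32.0% of all genes were lower. The ranges of the sterol sum did not overlap between any of the days. In the annotation used here, *Fdft1* shares 24.8% of its exon bases with its opposite-strand neighbour *Ctsb*. Reads in the shared bases cannot be assigned to 1 gene if strand was not used in counting. The same holds for *Cyp51* with *Akap9* (21.1%) and *Mvd* with the lncRNA *Gm51557* (20.5%). *Tm7sf2* shares 10.8% of its exon bases with *Vps51* on the same strand, where strand cannot separate the reads.

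Of 47 further genes of these pathways, fixed as lists, 42 passed the filter, and 26 were lower and 7 higher on day 14 than on day 1 at an adjusted p below 0.01, with a median Log2FC of -0.33, where 36.0% of all genes were lower and 32.6% higher. Those called lower were *Aacs* (Log2FC -1.98 ± 0.04 SE), which activates acetoacetate for lipid synthesis, *Acsl3* (-1.06 ± 0.05 SE), which activates fatty acids, and *Tmem97* (-1.04 ± 0.05 SE), a sterol-linked membrane protein. Those called higher were *Me1* (1.77 ± 0.04 SE), the malic enzyme that supplies NADPH, and *Soat1* (1.09 ± 0.04 SE), which esterifies cholesterol for storage. Of 19 genes of fatty acid supply, elongation and activation 17 were lower and 1 higher. Of 12 fatty acid oxidation genes 3 were lower and 4 higher, shares near those over all genes, and the lists were not tested against each other. Among 4 measured genes of LXR and its targets, *Nr1h2* (0.44) and *Mylip* (0.50) rose, and *Apoe* (-0.74) and *Lpcat3* (-0.51) fell.

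The sorted cells were compared to ask whether these genes differ between cells of high and low surface CD61 within cultures of the same age. Of 18 sterol enzymes, 3 were higher and 2 lower in CD61high at an adjusted p below 0.01. With library size alone as the scale 8 were lower, where 4824 of all 12077 genes tested were lower and 1120 higher. With TMM the median Log2FC of the sterol enzymes was 0.08, against 0.00 over the 12077 genes tested. For 17 of the 18 the 95% interval lay within 2-fold either way, and for 9 it held 0. Over the 33 genes, 9 were higher and 4 lower, against 19.4% and 16.0% of all genes, and with the fold limit *Abca1* and *Insig2* were called higher and *Elovl6* lower, against 4.84% and 4.37%.

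**Figure D3:**
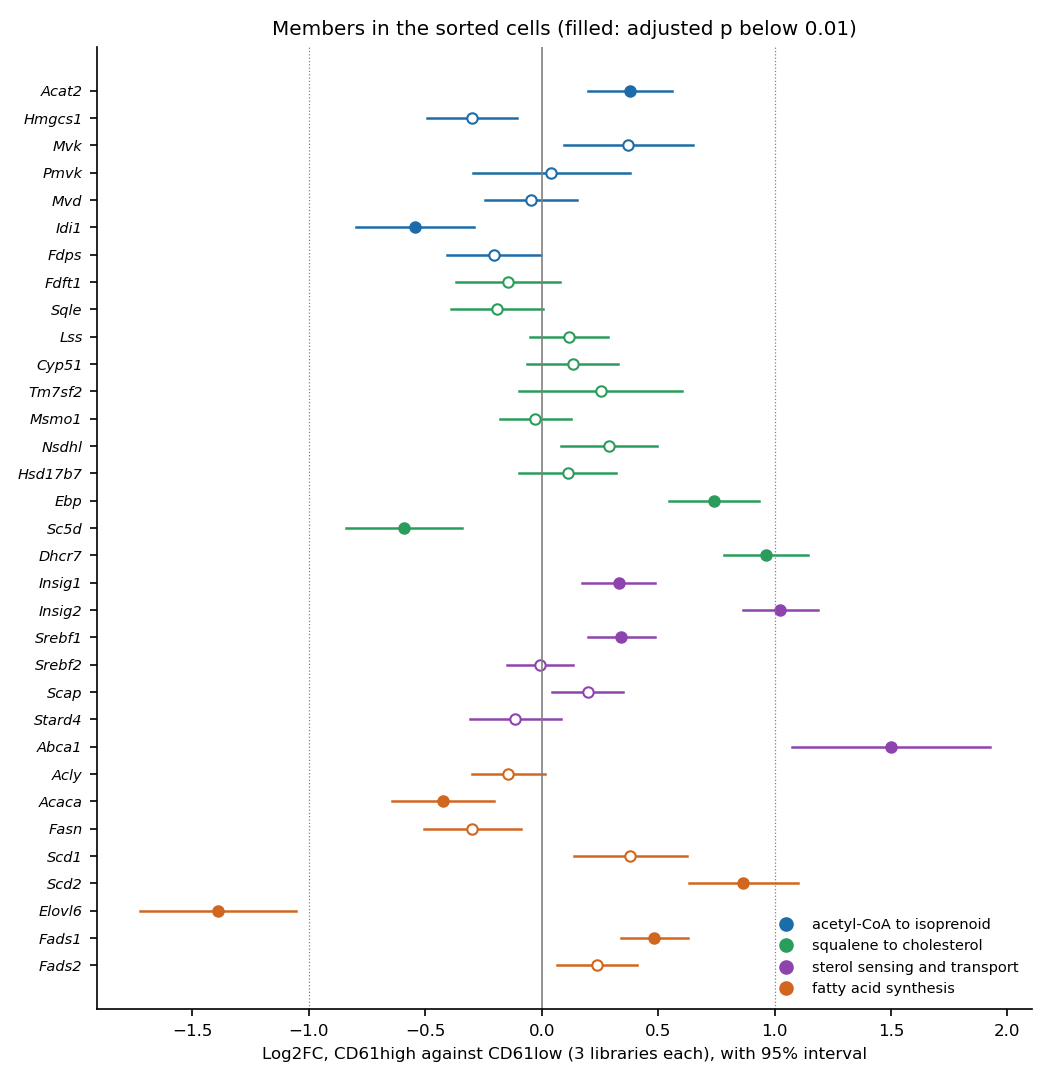
Log2FC of CD61high against CD61low (3 libraries each) with its 95% interval for each of the 33 members, coloured by role, filled where the adjusted p was below 0.01, with dotted lines at 2-fold. *Abca1* and *Insig2* lie to the right of the upper dotted line, *Elovl6* lies to the left of the lower one, and most sterol enzymes lie near 0.

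*Abca1* was at 15.6, 12.2 and 21.2 TMM-scaled CPM in CD61low and at 55.1, 37.9 and 45.5 in CD61high (Log2FC 1.50 ± 0.19 SE, adjusted p = 1.1e-04). *Insig2* was at 64.8, 59.9 and 66.6 in CD61low and at 134, 128 and 127 in CD61high (Log2FC 1.03 ± 0.07 SE, adjusted p = 1.9e-06). The groups did not overlap for either gene. *Insig2* lay at the fold limit, with a Log2FC of 0.98 without the second CD61low library, 0.999 without the first CD61high library and 0.72 with library size alone as the scale.

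*Elovl6* was at 14.7, 13.6 and 13.9 TMM-scaled CPM in CD61low and at 6.51, 4.49 and 5.06 in CD61high (Log2FC -1.39 ± 0.15 SE, adjusted p = 3.8e-05). The highest CD61high library lay below the lowest CD61low library. Per transcript length *Elovl6* and *Abca1* had the lowest levels of the 33 genes in CD61low, at 4.58 ± 0.15 and 2.99 ± 0.89 TPM (a transcript measure scaled by length; SD, n = 3), and *Scd2* the highest, at 434 ± 113.

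Other fatty acid genes went both ways. *Scd2* was at 1175, 1061 and 1393 TMM-scaled CPM in CD61low and at 2319, 1996 and 2298 in CD61high (Log2FC 0.87 ± 0.11 SE, adjusted p = 8.4e-05), and *Fads1* was higher by 0.48 ± 0.06 SE, or by 0.18 with library size alone (adjusted p = 0.031). *Acaca* was lower, at 89.8, 92.8 and 102 against 80.7, 62.7 and 69.0 (Log2FC -0.42 ± 0.10 SE, adjusted p = 0.0049). *Fasn* missed the threshold (Log2FC -0.30, 95% interval -0.51 to -0.09, adjusted p = 0.023), as did *Scd1* (0.38, interval 0.14 to 0.63), *Fads2* (0.24, interval 0.07 to 0.41) and *Acly* (-0.14, interval -0.30 to 0.01).

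Among the sterol enzymes, *Dhcr7*, *Ebp* and *Acat2* were higher in CD61high and *Sc5d* and *Idi1* lower. *Dhcr7* was at 35.9, 31.7 and 32.7 TMM-scaled CPM in CD61low and at 63.2, 63.1 and 69.1 in CD61high (Log2FC 0.96 ± 0.08 SE, adjusted p = 6.7e-06), and past the fold limit, at 1.01, without the first CD61low library. *Ebp* was at 81.8, 70.9 and 68.4 against 114, 126 and 129 (Log2FC 0.74 ± 0.09 SE, adjusted p = 6.5e-05). Neither gene's groups overlapped.

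*Acat2* was higher by less (Log2FC 0.38 ± 0.08 SE, adjusted p = 0.0031), and with library size alone it was at 0.077 (adjusted p = 0.44). The enzymes lower in CD61high were *Sc5d*, at 42.6, 45.9 and 50.6 against 34.4, 25.9 and 32.0 TMM-scaled CPM (Log2FC -0.59 ± 0.11 SE, adjusted p = 0.0015), and *Idi1*, at 30.2, 31.7 and 34.6 against 19.7, 20.8 and 25.7 (Log2FC -0.54 ± 0.11 SE, adjusted p = 0.0026). *Hmgcs1* was at 50.2, 45.6 and 54.8 against 40.8, 38.8 and 42.6 and missed the threshold (Log2FC -0.30, interval -0.49 to -0.11, adjusted p = 0.016). Its groups did not overlap, and how many of all genes had levels without overlap was not counted.

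Of the remaining sterol enzymes, *Mvk* (0.37, interval 0.09 to 0.65) and *Nsdhl* (0.29, interval 0.08 to 0.50) missed the threshold with intervals above 0, and *Fdps* (-0.21) with one that ended just below it. The intervals of *Mvd*, *Pmvk*, *Fdft1*, *Sqle*, *Lss*, *Cyp51*, *Tm7sf2*, *Msmo1* and *Hsd17b7* held 0. Of the regulators *Srebf1* (0.34 ± 0.07 SE) and *Insig1* (0.33 ± 0.07 SE) were higher in CD61high, and both calls ended with library size alone as the scale (0.042, adjusted p = 0.59, and 0.029, adjusted p = 0.73). *Scap* (0.20, interval 0.04 to 0.35), *Srebf2* (-0.01, interval -0.15 to 0.13) and *Stard4* (-0.11, interval -0.31 to 0.08) missed the threshold.

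**Figure D4:**
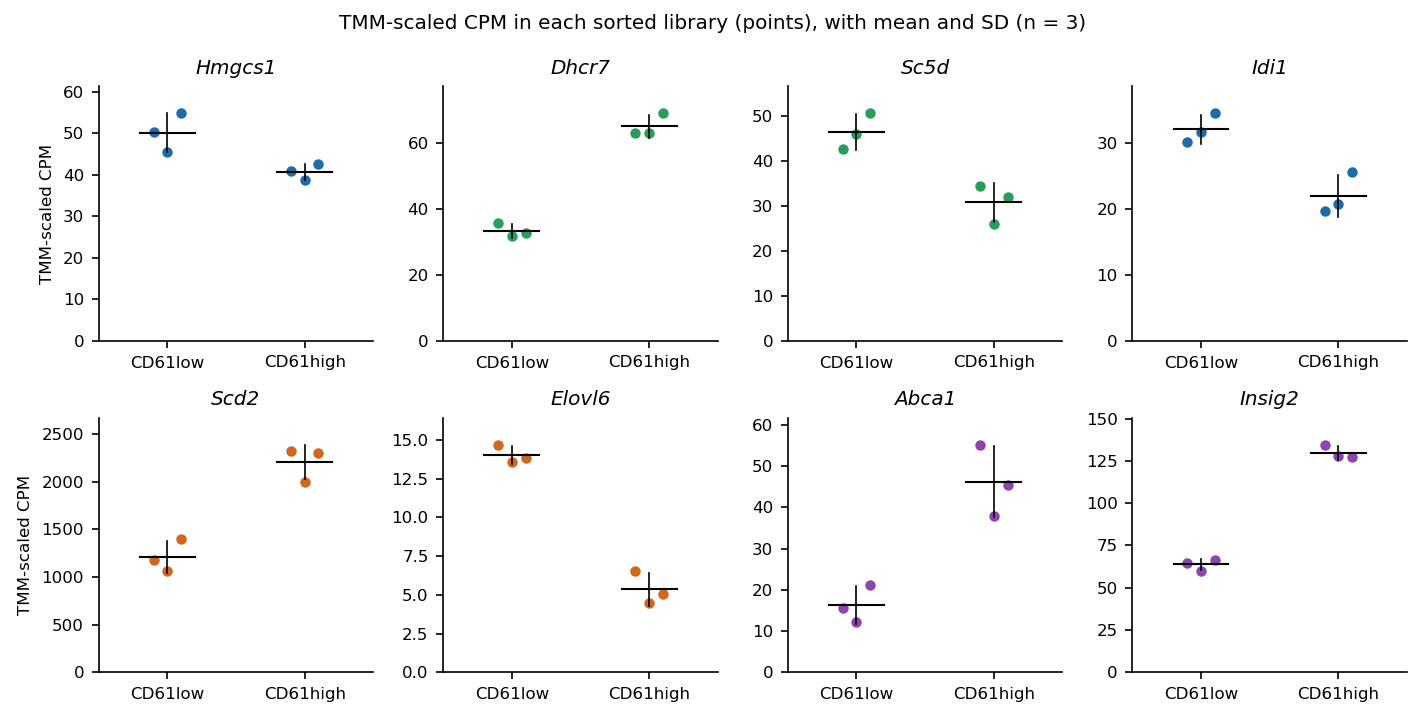
TMM-scaled CPM of 8 members in each sorted library (points), with the mean and SD of 3 libraries (bars), each panel from 0. CD61high lies above CD61low without overlap for *Dhcr7*, *Scd2*, *Abca1* and *Insig2*, and below it for *Hmgcs1*, *Sc5d*, *Idi1* and *Elovl6*. How many of all genes had levels without overlap was not counted.

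Transcript shares are given as a description, with no test. Of 63 member transcripts that held at least 10% of their gene's counts in some library, 5 had shares that did not overlap between the sorted groups (7.94%), against 11.9% of 25328 such transcripts over all genes with at least 5 counts in each library, so the members' count is not above the background. These 5 were Hmgcs1-201, Hmgcs1-202, Sc5d-203, Srebf1-207 and Stard4-201. For *Hmgcs1*, the share of the gene's estimated counts on the main transcript, Hmgcs1-201, was 86.1%, 92.6% and 88.9% in CD61low and 76.6%, 76.6% and 76.7% in CD61high, and Hmgcs1-202 took 12.9%, 6.10% and 9.82% against 22.6%, 23.2% and 22.6%. Most *Lss* counts lay on retained-intron models, with 37.4% ± 4.7 in CD61low and 36.7% ± 6.8 in CD61high (SD, n = 3) on the coding Lss-201.

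With library size alone as the scale, the median Log2FC of all genes moved to -0.30, 314 genes were called higher and 981 lower in place of 585 and 528, and 4 members that were higher in CD61high (*Srebf1*, *Insig1*, *Acat2* and *Fads1*) no longer passed the test. The cell cycle list moved with the sort. Its summed level was 1751 to 2027 TMM-scaled CPM in CD61low and 2264 to 2479 in CD61high. Of its 10 genes 6 were higher at an adjusted p below 0.01, against 19.4% of all genes, and its part in the results was not tested. The adipocyte list summed to 17.5 to 20.6 in CD61low and 13.8 to 14.6 in CD61high, and the macrophage list to 12.8 to 15.8 and 8.18 to 8.86.

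Among the 42 further pathway genes tested in the sorted cells, 7 were higher and 10 lower at an adjusted p below 0.01, against 19.4% and 16.0% of all genes, so the count of higher genes is not above the background. *Lpin1*, a phosphatidate phosphatase of lipid synthesis, was called higher (Log2FC 1.06 ± 0.08 SE). Of 5 genes of the isoprenoid branches 4 were lower, with *Pdss1*, which builds the ubiquinone side chain, at -0.88 and *Ggps1*, the geranylgeranyl diphosphate synthase, at -0.72. Of 7 genes of sterol transport, storage and oxidation 3 were higher (*Scarb1* 0.60, *Npc2* 0.60 and *Soat1* 0.35). Among genes of SREBP processing and sterol-linked degradation, *Erlin1* (-0.85) and *Rnf139* (-0.52) were lower. Among the 4 measured genes of LXR and its targets, *Nr1h2*, which encodes an LXR, was higher by 0.51 and *Lpcat3* by 0.68, while *Mylip* (0.08, adjusted p = 0.40) and *Apoe* (0.17, adjusted p = 0.49) missed the threshold. In edgeR's test 0 of 12 fatty acid oxidation genes passed in either direction, with 3 higher at an unadjusted p below 0.05 and 0 passing in DESeq2.

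Side by side, *Elovl6* was the 1 gene of the 21 called lower on day 14 that was also called lower in CD61high, where 4.37% of all genes were called lower, and nothing is read from that share. *Abca1* and *Insig2*, the members called higher on day 14, were called higher in CD61high as well. *Dhcr7*, *Scd2* and *Ebp*, which ended day 14 within 2-fold of day 1, had the next largest differences in favour of CD61high. The experiments were counted by different tools and differ in age and dissociation of the cells, and no test compared them with each other.

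**Figure D5:**
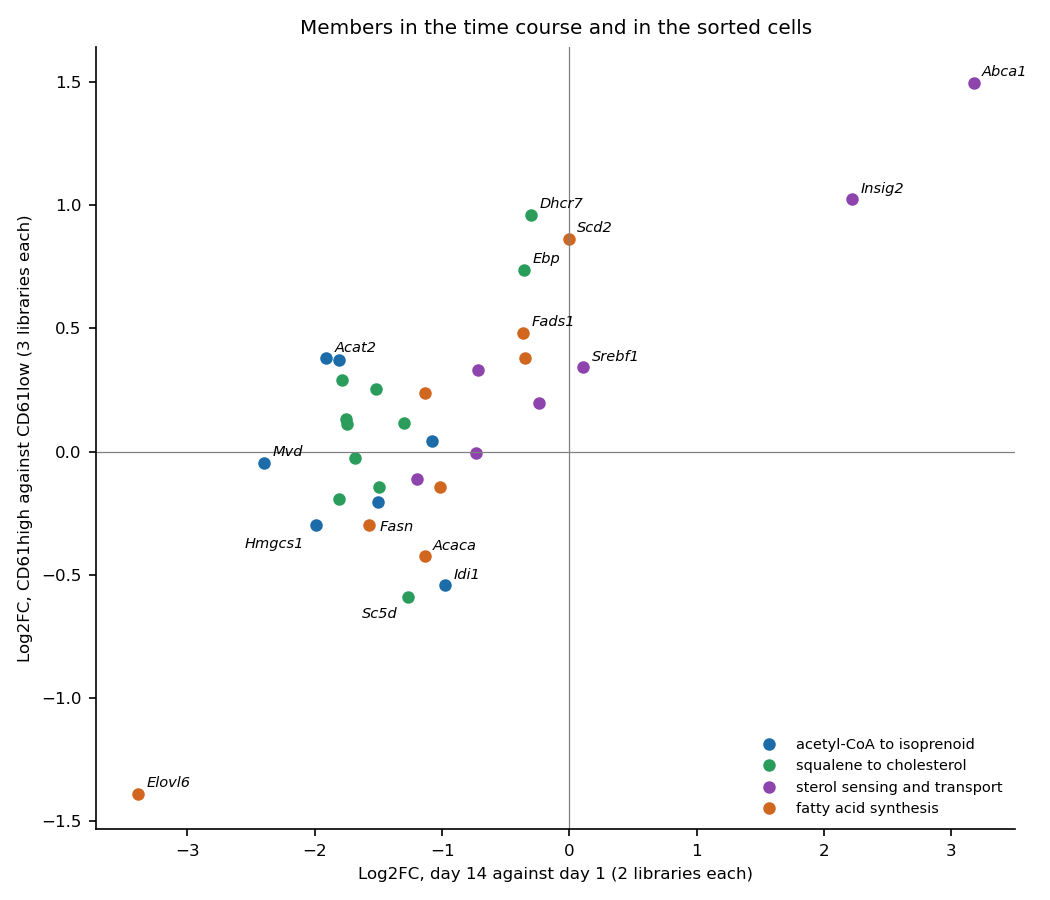
Log2FC of day 14 against day 1 (horizontal) and of CD61high against CD61low (vertical) for the 33 members, coloured by role. Most sterol enzymes lie at the left near 0 on the vertical axis, *Elovl6* is lowest on both axes, and *Abca1* and *Insig2* are highest on both.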

How the data were processed

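RNA-seq was made from polyA libraries on the BGI DNBseq platform. For the time course, the CPM table deposited by the authors came from STAR alignment and HTSeq-count, each value of which came back to whole reads within 0.01 (100.0% of values). The annotation version behind that table and the use of strand are not given in the sources used here. For the sorted cells the authors ran Salmon on GRCm39 transcripts and deposited estimated counts and TPM per transcript. Here, transcripts were summed to genes through GENCODE (115556 of 116747 matched, holding 99.3% to 99.4% of counts).

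The time course was tested with limma 3.58.1 (trend) on log2(CPM + 1) over 12725 genes above 1 CPM in at least 1 library, with all 8 libraries in the fit, where a fold change understates that of low genes. For the sort, rounded gene counts went into the quasi-likelihood test of edgeR 4.0.16 with TMM factors, without a replicate block, for the 12077 genes whose normalized count was 5 or more in each of the 6 libraries. DESeq2 1.42.0 was an alternative. P-values were adjusted over all genes (Benjamini-Hochberg), two-sided, and rest on 2 or 3 libraries a group. All 33 members passed both filters. The test scripts were tested on simulated counts. The members and lists were chosen with earlier results of these data known. Every member is named for day 14 and for the sort, with library values for those the results turn on, and from other lists the called genes. Promoter windows are RefSeq's (GRCm38.p6). No table of the authors' own comparisons was used.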

Additional observations from a re-analysis of the deposited data

How the results depend on the processing

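The counts of members called in the time course held within 1.5 times under every alternative run: a pseudocount of 0.1, other filters, quantile normalization, edgeR on the recovered reads, only the 4 libraries compared, a threshold of 0.05, each library left out and, added after seeing the data, TMM scaling. Members called lower on day 14 against day 1 were 20 to 22 with a library left out, and 21 with a replicate block. Same-numbered libraries correlated by -0.03 to 0.06 in the time course and by -0.32, 0.22 and -0.06 in the sort, so not every pair passed 0.1 and the numbers were not taken as pairs. Whether libraries of the same number share a culture is not given in the sources used here. With the replicate block the sort also gave 2 members higher and 1 lower. In the sort, library size alone gave 1 member called higher and 8 sterol enzymes lower at an adjusted p below 0.01. On that scale 4824 of the 12077 genes tested were lower and 1120 higher at the same threshold. Leaving out a library gave 1 to 3 members called higher. It gave 2 to 4 sterol enzymes higher and 2 lower at an adjusted p below 0.01.

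Directions of single members were followed for day 14 against day 1 and for the sort, not for neighbouring days. Those that turned were at an adjusted p above 0.05 when turned. *Scd2* on day 14 was at 0.029 after TMM scaling and with edgeR, and from -0.032 to 0.019 with a library left out. With library size alone in the sort, *Pmvk* was at -0.26, *Hsd17b7* at -0.19, *Lss* at -0.18, *Cyp51* at -0.17, *Scap* at -0.10, *Fads2* at -0.064, *Tm7sf2* at -0.047 and *Nsdhl* at -0.011. With a sorted library left out, *Pmvk* ran from -0.074 to 0.11, *Msmo1* from -0.058 to 0.0011 and *Srebf2* from -0.029 to 0.012. The errors of *Idi1* and *Tm7sf2* were 0.12 each on the log2 scale, and 2 libraries a day limit what the spread between cultures can show.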
